A study of Homo sapiens with 22 samples.

Results

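The interferon-stimulated effector genes are the genes that a cell switches on when interferon, or the sensing of foreign nucleic acid, activates it. Here they are 53 human genes named by a fixed list of symbols, drawn up with earlier results of these data known but using no measured value as a criterion, and read from tables that list up to 60669 genes. They were followed in 22 RNA-seq libraries made from MDA-MB-231 cells, a widely used line of triple-negative, mesenchymal breast cancer. By function they fall into 10 roles: the IFIT family, the OAS family with the exonuclease ISG20, the MX and guanylate-binding GTPases, the ISG15 conjugation system, membrane proteins acting at viral entry or budding, the IFI proteins, helicase-like and restriction factors, PARP proteins with DTX3L, TRIM and nuclear-body proteins, and 1 transcription factor with 3 secreted proteins.

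The series title concerns inhibition of BET proteins (bromodomain readers of acetylated chromatin) and the writer complex of m6A, a methyl mark on RNA whose catalytic subunit is METTL3. The 22 libraries form 11 groups of 2, all labelled WT for genotype, in 3 separately deposited tables. The knockdown table holds cells after 2 to 3 months, the labels describing infection with lentivirus: B5 (a label that is not expanded, used here as the reference), shM3, shM3 with METTL3-WT added back (shM3-WT) and shM3 with METTL3-CD added back (shM3-CD). The DMSO table holds cells after 3 days in DMSO, the solvent, or in 0.5 µM of JQ1, Molib or I-BET151. The CTRL table holds a control, 0.5 µM JQ1, and a group titled MW-JQ1 that carries the same JQ1 treatment label and time. MW is not expanded in the labels. Each knockdown or add-back group may be 1 infected population, and no label says whether replicate libraries were grown apart, so a p-value reflects the spread among these libraries alone, which may be technical. The labels describe a directional kit and a ribosomal-depletion protocol without tying either to a sample.

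As background, type I and type III interferons bind receptors that activate the kinases JAK1 and TYK2. These phosphorylate STAT proteins, which with IRF9 form ISGF3, a complex that binds the interferon-stimulated response element (ISRE) in the promoters of these genes. Interferon gamma acts at a different sequence, the gamma-activated site (GAS). The products block infection at many steps: IFIT proteins bind viral RNA ends, OAS enzymes activate RNase L, MX GTPases trap viral particles, ISG15 is a ubiquitin-like tag, and IFITM proteins act on membrane fusion. Many cancer cell lines keep part of this programme on without added interferon.

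Promoter windows of 6 members are shown because the ISRE core is the feature most of these genes share outside the list's own rule. They come from RefSeq (GRCh38.p14) and run 5′ to 3′ on the gene's strand, from 250 bases before to 50 after the transcription start. Capitals mark each match on either strand to the ISRE core, searched as 2 copies of GAAA with any 2 bases between. The GAS was searched as TTC, any 3 bases and GAA, on both strands, and is not marked. The windows are chr10:89392373-89392672 (+) for IFIT1, chr1:1013247-1013546 (+) for ISG15, chr1:27672143-27672442 (-) for IFI6, chr14:94110486-94110785 (+) for IFI27, chr4:76023448-76023747 (-) for CXCL10 and chr12:112906712-112907011 (+) for OAS1.
IFIT1: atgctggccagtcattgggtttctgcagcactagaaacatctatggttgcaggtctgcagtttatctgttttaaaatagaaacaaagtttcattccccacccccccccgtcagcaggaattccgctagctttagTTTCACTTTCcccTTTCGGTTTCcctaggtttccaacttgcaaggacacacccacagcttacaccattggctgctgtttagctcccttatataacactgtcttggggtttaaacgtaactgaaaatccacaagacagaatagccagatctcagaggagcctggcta
ISG15: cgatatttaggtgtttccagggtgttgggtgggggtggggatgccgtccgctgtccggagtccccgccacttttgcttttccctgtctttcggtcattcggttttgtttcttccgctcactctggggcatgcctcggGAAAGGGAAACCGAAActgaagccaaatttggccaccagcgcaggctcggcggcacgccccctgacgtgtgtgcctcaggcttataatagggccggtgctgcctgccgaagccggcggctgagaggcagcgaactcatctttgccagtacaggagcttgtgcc
IFI6: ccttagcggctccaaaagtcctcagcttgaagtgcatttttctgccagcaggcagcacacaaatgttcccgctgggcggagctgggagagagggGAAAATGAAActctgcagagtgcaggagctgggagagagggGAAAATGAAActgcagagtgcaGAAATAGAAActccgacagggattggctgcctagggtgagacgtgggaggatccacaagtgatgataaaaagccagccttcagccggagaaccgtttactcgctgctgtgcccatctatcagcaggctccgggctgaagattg
IFI27: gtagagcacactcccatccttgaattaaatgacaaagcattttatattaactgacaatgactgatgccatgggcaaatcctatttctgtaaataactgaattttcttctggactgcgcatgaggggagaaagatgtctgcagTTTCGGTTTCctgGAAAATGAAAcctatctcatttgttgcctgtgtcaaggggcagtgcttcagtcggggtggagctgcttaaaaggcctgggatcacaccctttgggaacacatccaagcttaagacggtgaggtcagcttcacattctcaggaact
CXCL10: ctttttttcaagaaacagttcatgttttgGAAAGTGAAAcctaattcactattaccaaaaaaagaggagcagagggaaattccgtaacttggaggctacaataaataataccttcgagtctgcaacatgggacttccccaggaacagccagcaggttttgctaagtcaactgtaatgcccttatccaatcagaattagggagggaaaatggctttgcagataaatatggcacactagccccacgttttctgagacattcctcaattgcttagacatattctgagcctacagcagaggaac
OAS1: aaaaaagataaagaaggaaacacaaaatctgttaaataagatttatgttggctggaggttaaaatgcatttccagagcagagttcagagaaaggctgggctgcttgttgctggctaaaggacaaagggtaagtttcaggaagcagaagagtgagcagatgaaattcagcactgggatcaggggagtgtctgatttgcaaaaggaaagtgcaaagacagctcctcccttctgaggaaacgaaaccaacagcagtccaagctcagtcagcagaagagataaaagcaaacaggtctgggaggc

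A window was matched by symbol for 42 of the 53 members. The ISRE core was present in 31 of those 42 (73.81%), and 16 of them held 2 or more copies. A member with several windows was represented by the one with most ISRE matches. Over all 27305 symbols 4.38% held the core in any window, and over all 35116 windows of the same length 3.57% held it. The GAS was present in 11 of 42 members (26.19%), counted in the same member windows. It was present in 9.38% of all symbols, counting any window, and in 7.66% of all windows. The 50 ISRE matches lay close to the start: their first bases had a median position of -73.5 and ranged from -221 to 23, and 43 lay within the 150 bases before the start. IFIT1, an RNA-end-binding protein, held 2 ISRE matches, IFI27 held 2, and OAS1, which made the largest change with METTL3-WT added back, held 0 ISRE and 1 GAS match. The windows of PARP9 and DTX3L overlap, since those genes start next to each other on opposite strands. A match is a string of letters and not a site, the absence of one concerns only these letters in this window, and binding was not measured here.

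By the GENCODE annotation of hg38, 29 of the 53 members lie in 12 clusters of neighbours within 100 kb of each other. The largest holds IFIT2, IFIT3, IFIT1 and IFIT5 on chromosome 10 (89283694 to 89421001). OAS1, OAS3 and OAS2 lie on chromosome 12 (112906777 to 113011723), IFITM2, IFITM1 and IFITM3 on chromosome 11 (307631 to 327537), GBP1, GBP2 and GBP4 on chromosome 1 (89052319 to 89198932), and MX2 and MX1 on chromosome 21 (41361943 to 41459214). Values of the IFITM genes, which are closely similar in sequence and where the gene models of IFITM1 and IFITM2 overlap on the same strand, are uncertain for that reason. The pairs RSAD2 with CMPK2 and PARP9 with DTX3L overlap on opposite strands, and whether strand was used in counting is not given in the sources used here.

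Values are FPKM, fragment counts scaled to transcript length and library size, so levels can be compared between genes within a table. The commonest lowest FPKM step among single-exon genes, read as 1 fragment, gives depths of 12740000 to 19300000 fragments for the 16 libraries from knockdown and DMSO tables, where replicates correlated at 0.977 to 0.987 (Pearson r over genes, log2 scale). In the CTRL table no step stood out, so its depth is unknown. The CTRL libraries correlated at 0.746 and the JQ1 libraries of that table at 0.777, against 0.987 for MW-JQ1. Of 5719 genes at 10 FPKM or more in both MW-JQ1 libraries, the CTRL and JQ1 libraries listed between 191 and 644 at exactly 0. METTL3 was listed at 20.1 and 23.8 FPKM (B5), 4.39 and 4.80 (shM3), 312 and 311 (shM3-WT) and 277 and 270.5 (shM3-CD), which matches the labels. HEXIM1, a transcript that BET inhibitors are known to raise, was at 26.5 and 29.4 in DMSO, 73.8 and 76.7 with JQ1 and 72.9 and 69.6 with Molib. The libraries labelled I-BET151 listed it at 10.3 and 6.37 (adjusted p = 0.00113, limma). Since this goes against a BET-inhibitor response, those libraries are named by their label only. Library 2 of B5 lists PIDD1 at 8234197 FPKM, and its other genes sum to 423171. Of 5 haematopoietic markers, CD3E was at 0 and PTPRC at or below 0.29 FPKM in all knockdown libraries, while CD68 was at 27.3 to 47.6, CD14 at 16.8 and 6.71 in B5 and 4.28 to 6.13 elsewhere, and LYZ at 4.498 and 4.14 in B5 and 0.324 to 0.986 elsewhere.

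For each table, limma was fitted to log2(FPKM + 1) over all genes with at least 1 FPKM in at least 2 libraries. A gene was called higher or lower at a Benjamini-Hochberg adjusted p under 0.05 over all genes of that table. All adjusted p-values below are from that fit, with 2 libraries per group, and log2 differences are on the log2(FPKM + 1) scale, which understates changes of low genes, while folds are ratios of mean FPKM. The filter was passed by 52 of 53 members in the knockdown table (not CMPK2), by 50 in the DMSO table (not CMPK2, IFI44L or XAF1) and by 49 in the CTRL table, where CMPK2, IFI44L, RTP4 and USP18 were not analysed. Bulk values do not tell fewer cells that express a gene from less RNA per cell.

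**Figure D1:**
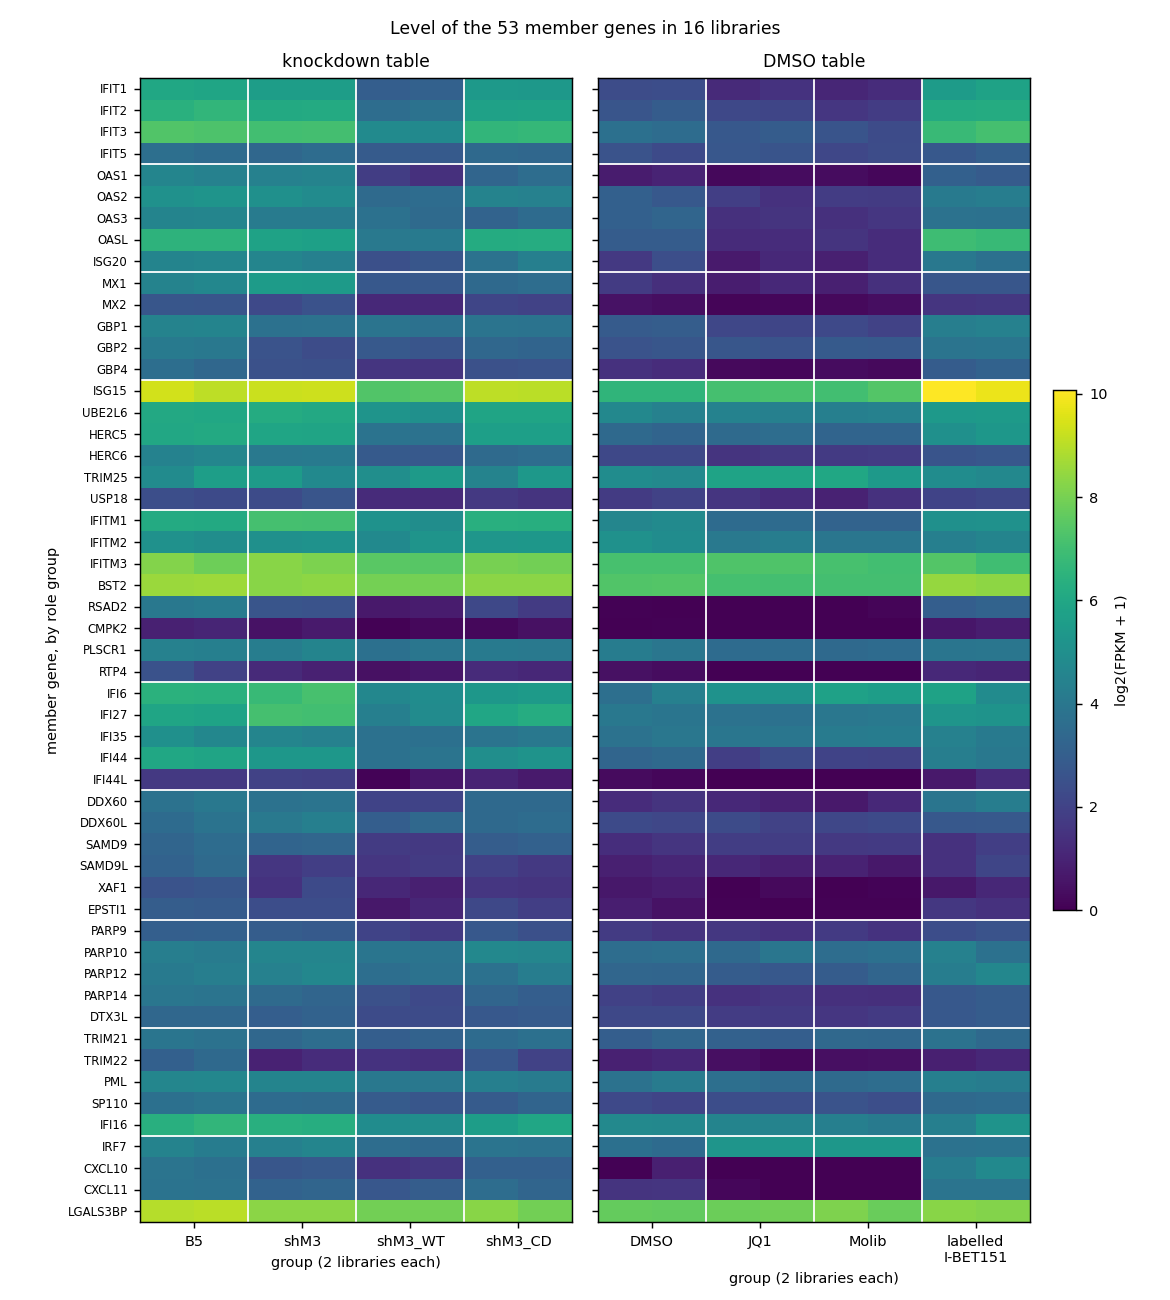
Level of every member in every library as log2(FPKM + 1), colour scale in the bar, with members in rows grouped by role and 16 libraries (knockdown table, then DMSO table) in columns by group. Summed over the 53 members, FPKM was 3307.5 and 3175.6 in B5, 1312.5 and 1361.3 in shM3-WT, 964.9 and 962.3 in DMSO and 2863.1 and 2623.2 under the I-BET151 label.

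Knockdown of METTL3 alone lowered more members than it raised, and the share raised was below that over all genes. In shM3 against B5, 6 of 52 tested members were higher and 21 lower, against 17.9% of all 14638 genes higher and 19.9% lower. The members' median log2 difference was -0.24, beside 0.00 over all genes. IFI27, IFITM1 and MX1 rose the most. SAMD9L, a cytoplasmic restriction factor, GBP2, a guanylate-binding GTPase, and RSAD2, which makes an antiviral nucleotide, fell the most after TRIM22, a TRIM-family antiviral protein. The summed FPKM of the members went from 3307.5 and 3175.6 in B5 to 3005.8 and 3002.1 in shM3. Of the 27 calls, 14 held whichever library was left out, and without shM3 replicate 1 the number of calls was 16. The call was lost in at least 1 such fit for BST2, CXCL11, DDX60L, EPSTI1, HERC6, IFI6, IFIT1, IFIT2, IFIT3, PARP10, PARP14, TRIM21 and XAF1, with adjusted p up to 0.228.

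Adding METTL3-WT back to the knockdown cells lowered nearly the whole set. In shM3-WT against shM3, 44 of 52 members were lower and 0 higher, against 22.7% of all genes lower and 16.7% higher, and the members' median log2 difference was -1.02 beside -0.08 over all genes. The summed FPKM was 1312.5 and 1361.3 in shM3-WT, below both shM3 libraries and both B5 libraries. For all genes the split of 2451 higher and 3321 lower turned to 2895 and 2668 with TMM-type scaling and to 2886 and 2690 with median scaling, while 42 members were lower and 0 higher under each. The largest falls were in OAS1, MX1 and IFIT1. The members not called were GBP1, GBP2, CXCL11, TRIM22, TRIM25, IFITM2, RTP4 and SAMD9L. Of the 44 calls, 38 held with each library left out in turn. The call was lost in at least 1 such fit for LGALS3BP, OAS3, PARP12, PLSCR1, TRIM21 and XAF1, with adjusted p up to 0.197.

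Adding METTL3-CD back changed fewer members and by less. In shM3-CD against shM3, 3 of 52 were higher and 16 lower, against 6.82% of all genes higher and 4.59% lower, with a median log2 difference of -0.28 beside 0.01 over all genes. The falls were led by MX1, IFI6 and IFI44L, and the rises were in GBP2, OASL and TRIM22. This count rests on all 4 libraries: it fell whichever was left out, and only MX1, IFI6 and IFITM1 were called in every such fit. The count over all genes fell in the same fits, each of which leaves 1 library in a group. The members' median log2 difference was -0.30 without either shM3 library. It was -0.30 without shM3-CD replicate 1 and -0.29 without shM3-CD replicate 2. Compared directly, shM3-WT lay below shM3-CD in 35 of 52 members and above it in 0, against 15.7% of all genes lower and 10.2% higher. The members' median log2 difference there was -0.72 beside -0.08 over all genes. Of the 35 calls, 24 held with each library left out. A call was lost in at least 1 such fit for BST2, CXCL11, DTX3L, GBP2, IFI6, IFIT5, IFITM3, PARP14, PARP9, TRIM21 and TRIM22, with adjusted p up to 0.137. For all genes the split of 1494 higher and 2291 lower turned to 1931 and 1601 with TMM-type scaling and to 2014 and 1501 with median scaling.

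Against B5, shM3-WT was lower in 48 of 52 members and higher in 0, with 18.2% of all genes lower and 11.8% higher, and a median log2 difference of -1.43 beside -0.07 over all genes. The split over all genes, 1727 higher and 2659 lower, became 2388 and 2111 with TMM-type scaling and 2613 and 2013 with median scaling. shM3-CD was lower than B5 in 35 members and higher in 1, PARP10, with 15.2% of all genes lower and 14.8% higher and a median of -0.64 beside 0.00. Of the calls against B5, 45 of 48 held for shM3-WT and 21 of 36 for shM3-CD with each library left out. A call was lost in at least 1 shM3-WT fit for IFITM3, PARP10 and PLSCR1, with adjusted p up to 0.0975. In shM3-CD it was lost for BST2, DDX60, DTX3L, EPSTI1, IFI44L, IRF7, MX2, OASL, PARP10, PARP14, PML, RTP4, TRIM22, USP18 and XAF1, with adjusted p up to 0.159. The comparisons within this table share libraries, so their counts are not independent of each other. RN7SL1, the RNA of the signal recognition particle, was at 338 and 387 FPKM in shM3, 80.8 and 123 in shM3-WT and 121 and 183 in shM3-CD, and RN7SK was at 12.4 and 7.66, 1.28 and 0.47, and 5.16 and 2.77. Their part in the members' changes was not tested. The 5 haematopoietic markers summed to 58.5 to 68.5 FPKM in B5, 46.8 to 49.5 in shM3, 36.6 to 39.4 in shM3-WT and 34.0 to 44.0 in shM3-CD, mostly CD68. The 6 fibroblast and endothelial markers summed to 13.2 to 15.8 FPKM, 10.6 to 10.8, 5.06 to 5.14 and 9.34 to 9.51 in the same order of groups, with DCN and CDH5 at or near 0. CD44, a surface marker that MDA-MB-231 cells carry, stood at 125 and 121 FPKM (B5), 25.7 and 27.8 (shM3), 213 and 162 (shM3-WT) and 61.0 and 44.6 (shM3-CD). VIM and AXL, also expected in these cells, were lower in shM3 than in B5 and higher in shM3-WT than in B5. MSN was higher than in B5 in both. The part of these markers in the members' changes was not tested.

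**Figure D2:**
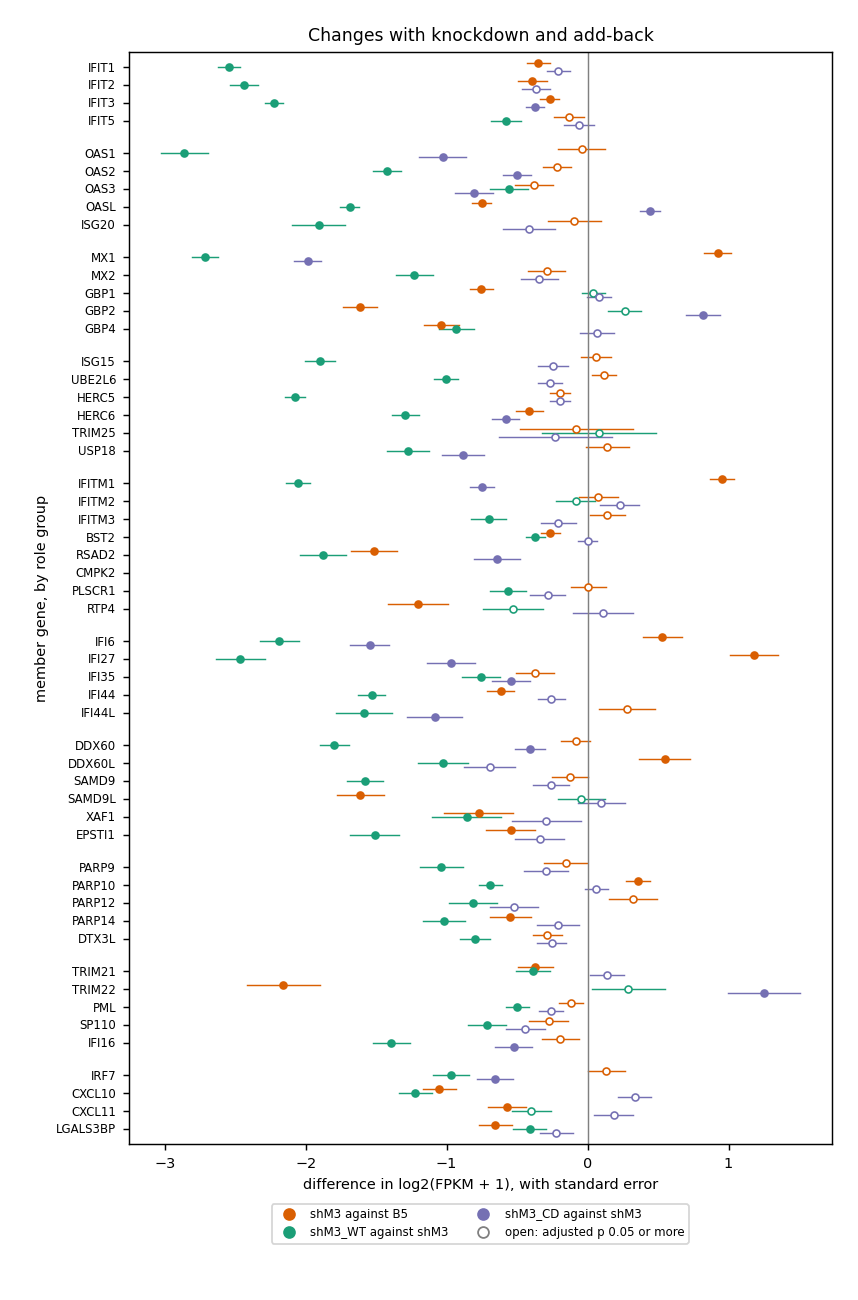
Log2 difference of each tested member, log2(FPKM + 1) scale, in 3 comparisons of the knockdown table, members in rows by role, 1 coloured point per comparison with its standard error as a line, filled where called. In shM3-WT against shM3, 44 of 52 points are called lower and none higher, and in shM3-CD against shM3 16 are called lower and 3 higher.

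Within the IFIT family, IFIT1, IFIT2 and IFIT3 moved together and IFIT5 less. IFIT1 was listed at 63.9 and 59.4 FPKM (B5), 48.4 and 47.9 (shM3), 7.14 and 7.71 (shM3-WT) and 42.7 and 40.5 (shM3-CD). Its shM3-WT libraries lie far below the other 6, which do not overlap with them. Compared with shM3, IFIT1 was 6.48-fold lower in shM3-WT (log2 difference -2.54 with SE 0.08, adjusted p = 8.28e-06), and the change in shM3-CD did not pass the test (log2 difference -0.21, adjusted p = 0.143). IFIT2, which binds AU-rich RNA, was listed at 83.9 and 99.3 FPKM (B5), 67.7 and 70.9 (shM3), 11.3 and 12.7 (shM3-WT) and 52.8 and 54.2 (shM3-CD). It was 4.46-fold lower in shM3-WT than in shM3-CD, next to 5.598-fold for IFIT1. IFIT3, the partner that stabilises IFIT1, was 4.81-fold lower in shM3-WT than in shM3. IFIT5 was 1.58-fold lower in the same comparison.

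The OAS family makes the second messenger that activates RNase L, except OASL, which lacks that activity. OAS1 was listed at 23.2 and 20.5 FPKM (B5), 20.6 and 21.8 (shM3), 2.52 and 1.64 (shM3-WT) and 8.78 and 11.1 (shM3-CD). B5 and shM3 overlap for OAS1, shM3-CD lies between, and shM3-WT is lowest. OAS1 was 10.2-fold lower in shM3-WT than in shM3 (log2 difference -2.86 with SE 0.17, adjusted p = 5.83e-05) and 2.13-fold lower in shM3-CD (log2 difference -1.03, adjusted p = 0.0113), a call that was lost without either shM3 library and without shM3-CD replicate 1. OASL was listed at 91.5 and 90.5 FPKM (B5), 54.97 and 52.3 (shM3), 15.6 and 16.3 (shM3-WT) and 72.3 and 74.05 (shM3-CD). It fell with knockdown (1.696-fold) and again with METTL3-WT (3.36-fold), while in shM3-CD it was 1.36-fold higher than in shM3 (log2 difference 0.44, adjusted p = 0.010), a call lost when any 1 of the 4 libraries was left out. OAS3, a neighbour of OAS1, was listed at 22.1 and 23.2 FPKM (B5), 17.2 and 17.1 (shM3), 12.6 and 10.2 (shM3-WT) and 8.31 and 10.5 (shM3-CD). OAS3 was 2.41-fold lower in shM3-CD than in B5, and shM3-WT and shM3-CD did not separate (log2 difference 0.25, adjusted p = 0.211, 95% interval -0.07 to 0.57). OAS2 and ISG20, an RNA exonuclease, were 2.85-fold and 4.31-fold lower in shM3-WT than in shM3.

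MX1, a dynamin-like GTPase, was listed at 21.5 and 24.4 FPKM (B5), 45.1 and 43.6 (shM3), 5.84 and 5.96 (shM3-WT) and 9.92 and 10.98 (shM3-CD). The 4 groups do not overlap: MX1 rose with knockdown and was lower than B5 in both add-back groups. It was 1.93-fold higher in shM3 than in B5 (log2 difference 0.92 with SE 0.10, adjusted p = 0.000523), 7.51-fold lower in shM3-WT than in shM3 (log2 difference -2.71 with SE 0.10, adjusted p = 1.32e-05) and 4.24-fold lower in shM3-CD (log2 difference -1.99 with SE 0.10, adjusted p = 0.000129). Its neighbour MX2 did not pass the test in shM3 against B5 (log2 difference -0.29, adjusted p = 0.126), and was 3.46-fold lower in shM3-WT than in shM3. The guanylate-binding proteins attack the membranes of pathogen vacuoles. GBP1 was listed at 21.8 and 22.5 FPKM (B5), 12.6 and 12.9 (shM3), 13.7 and 12.6 (shM3-WT) and 13.6 and 13.4 (shM3-CD). It fell 1.74-fold with knockdown and did not pass the test with METTL3-WT added back (log2 difference 0.04, adjusted p = 0.724, 95% interval -0.15 to 0.24). GBP2 was listed at 16.7 and 15.4 FPKM (B5), 5.04 and 4.12 (shM3), 6.01 and 5.35 (shM3-WT) and 9.18 and 8.48 (shM3-CD), 3.496-fold lower in shM3 than in B5 and 1.93-fold higher in shM3-CD than in shM3. GBP4 fell 2.29-fold with knockdown and a further 2.38-fold with METTL3-WT.

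In the ISG15 system, ISG15 is joined to target proteins by the E2 enzyme UBE2L6 and the E3 ligase HERC5 and removed by USP18. ISG15 was the member with the highest FPKM in B5, shM3 and shM3-CD, listed at 666 and 542 FPKM (B5), 622 and 629 (shM3), 159 and 175 (shM3-WT) and 532 and 522 (shM3-CD). The shM3-WT libraries lie far below the other 6. ISG15 was 3.74-fold lower in shM3-WT than in shM3 (log2 difference -1.90 with SE 0.11, adjusted p = 5.22e-05), and the difference between shM3-CD and shM3 did not pass (log2 difference -0.25, adjusted p = 0.184). HERC5, HERC6, USP18 and UBE2L6 were 4.46-fold, 2.69-fold, 3.53-fold and 2.03-fold lower in shM3-WT than in shM3. TRIM25, the E3 ligase that activates the RNA sensor RIG-I, varied between replicates, at 27.7 and 48.99 FPKM (B5), 45.3 and 26.7 (shM3), 30.6 and 44.4 (shM3-WT) and 21.6 and 40.5 (shM3-CD), and no difference of it was called in this table.

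Among the membrane proteins, IFITM1 and IFITM3 hinder viral fusion. IFITM1 was listed at 71.01 and 67.7 FPKM (B5), 137 and 134 (shM3), 34.2 and 29.6 (shM3-WT) and 80.2 and 79.5 (shM3-CD). It rose 1.95-fold with knockdown (log2 difference 0.95, adjusted p = 0.000295), fell 4.24-fold with METTL3-WT and fell 1.69-fold with METTL3-CD. IFITM3 was listed at 297 and 231 FPKM (B5), 307 and 271 (shM3), 179 and 175 (shM3-WT) and 255 and 245 (shM3-CD), 1.63-fold lower in shM3-WT than in shM3. IFITM2 was called in none of these comparisons. BST2, or tetherin, which holds budding virus at the cell surface, was listed at 377 and 391 FPKM (B5), 311 and 328 (shM3), 246 and 248 (shM3-WT) and 317 and 323 (shM3-CD). Its differences were small and called lower in shM3-WT than in shM3 (1.29-fold). RSAD2 was listed at 15.4 and 17.3 FPKM (B5), 5.24 and 4.91 (shM3), 0.591 and 0.724 (shM3-WT) and 3.52 and 2.34 (shM3-CD). RSAD2 was highest in B5 and lowest in shM3-WT, 3.22-fold lower in shM3 than in B5, 24.9-fold lower in shM3-WT than in B5 (log2 difference -3.39 with SE 0.16, adjusted p = 4.98e-05) and 5.59-fold lower in shM3-CD than in B5. PLSCR1, a phospholipid scramblase, was 1.52-fold lower and RTP4, a receptor chaperone, did not pass (log2 difference -0.53, adjusted p = 0.0889) in shM3-WT against shM3. CMPK2, a nucleotide kinase beside RSAD2, was at or below 1.05 FPKM in every knockdown library and was not tested.

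All 5 IFI proteins were lower in shM3-WT than in shM3. IFI27, a small mitochondrial protein, was listed at 59.5 and 55.8 FPKM (B5), 135 and 129 (shM3), 19.1 and 27.9 (shM3-WT) and 60.7 and 73.9 (shM3-CD). It was 2.29-fold higher in shM3 than in B5 (log2 difference 1.18 with SE 0.17, adjusted p = 0.00218) and 5.61-fold lower in shM3-WT than in shM3 (log2 difference -2.46 with SE 0.17, adjusted p = 0.000104). IFI6 was listed at 85.7 and 83.97 FPKM (B5), 109 and 139 (shM3), 24.1 and 28.6 (shM3-WT) and 38.9 and 44.2 (shM3-CD). It was 4.71-fold lower in shM3-WT and 2.99-fold lower in shM3-CD than in shM3. IFI44, IFI44L and IFI35 were 3.04-fold, 9.45-fold and 1.75-fold lower in shM3-WT than in shM3, with IFI44L below 3 FPKM throughout.

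Of the helicase-like and restriction factors, SAMD9 and SAMD9L are neighbours that block viral translation. SAMD9L was listed at 8.09 and 10.2 FPKM (B5), 1.99 and 2.62 (shM3), 2.05 and 2.34 (shM3-WT) and 2.86 and 2.22 (shM3-CD). The B5 libraries lie above all others, and the other 3 groups overlap. SAMD9L fell 3.96-fold from B5 to shM3 (log2 difference -1.61 with SE 0.17, adjusted p = 0.000538), while SAMD9 did not pass there (log2 difference -0.12, adjusted p = 0.469) and was 3.85-fold lower in shM3-WT than in shM3. DDX60, a helicase that aids RNA sensing, was 4.27-fold lower in shM3-WT than in shM3, DDX60L 2.15-fold, EPSTI1 4.997-fold and XAF1, a pro-apoptotic factor, 2.73-fold. All 5 of the PARP group were lower in shM3-WT than in shM3, from 1.66-fold for PARP10 to 2.43-fold for PARP9, which works with the ubiquitin ligase DTX3L. PARP10 was listed at 18.6 and 17.04 FPKM (B5), 23.3 and 22.9 (shM3), 14.1 and 13.7 (shM3-WT) and 24.9 and 23.4 (shM3-CD) and was 1.36-fold higher in shM3-CD than in B5 (log2 difference 0.42, adjusted p = 0.00991), a call lost without shM3-CD replicate 1.

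PML, the scaffold of nuclear bodies, was listed at 23.9 and 24.4 FPKM (B5), 22.1 and 22.2 (shM3), 15.6 and 15.2 (shM3-WT) and 19.4 and 17.3 (shM3-CD), 1.44-fold lower in shM3-WT than in shM3 (log2 difference -0.50, adjusted p = 0.0037). IFI16, a DNA sensor, was 2.68-fold lower there, SP110 1.74-fold and TRIM21, an antibody receptor in the cytosol, 1.35-fold. TRIM22 was the largest fall on the log scale in shM3 against B5 (log2 difference -2.16, adjusted p = 0.000952), at 7.62 and 9.93 FPKM (B5), 0.956 and 1.42 (shM3), 1.79 and 1.53 (shM3-WT) and 5.71 and 2.995 (shM3-CD). IRF7, the transcription factor that amplifies interferon production, was listed at 21.7 and 17.7 FPKM (B5), 20.1 and 23.3 (shM3), 11.2 and 9.88 (shM3-WT) and 13.7 and 12.97 (shM3-CD). It did not pass in shM3 against B5 and was 2.05-fold lower in shM3-WT and 1.62-fold lower in shM3-CD than in shM3. CXCL10, a chemokine for T cells, was listed at 13.8 and 12.3 FPKM (B5), 5.499 and 6.08 (shM3), 1.71 and 2.11 (shM3-WT) and 7.47 and 7.62 (shM3-CD). It fell 2.26-fold from B5 to shM3 and was 3.03-fold lower in shM3-WT than in shM3. LGALS3BP, a secreted glycoprotein, fell 1.58-fold from B5 to shM3.

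**Figure D3:**
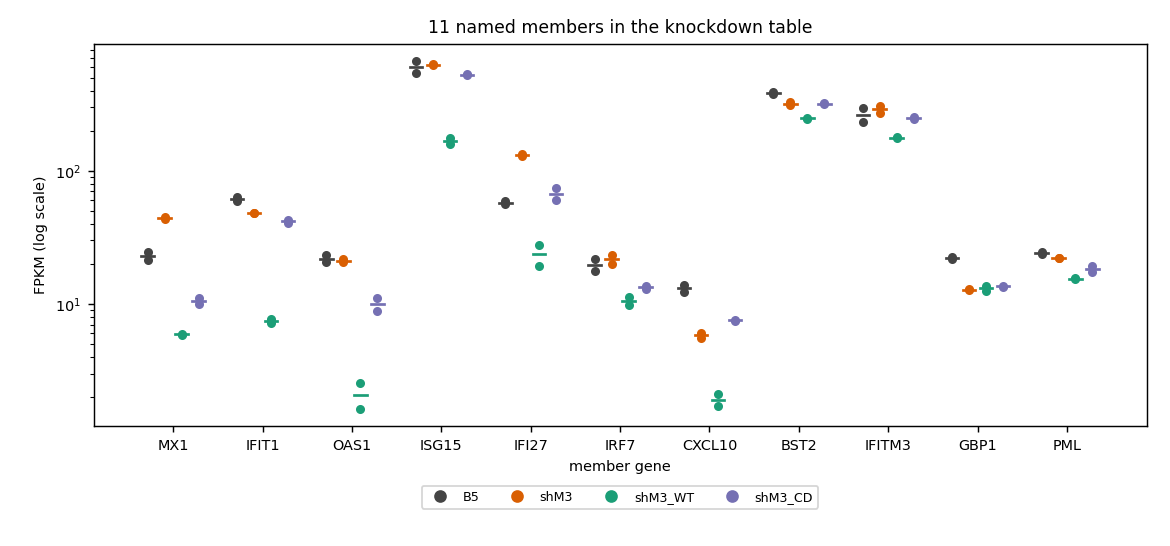
FPKM on a log axis of 11 members in the 4 groups of the knockdown table, each point 1 library and each bar the mean of 2. In each of IFIT1, OAS1, ISG15 and MX1 both shM3-WT libraries are the lowest points, and for GBP1 the shM3, shM3-WT and shM3-CD points overlap.

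Other genes of the pathway moved both ways. Ligands, receptors, factors, sensors and inhibitors gave 32 tested genes. In shM3-WT against shM3, 13 of the 32 were lower and 4 higher, against 22.7% and 16.7% of all genes. In shM3 against B5, 7 were lower and 5 higher, near the 19.9% and 17.9% of all genes. The transcription factors IRF9 and STAT2, both part of ISGF3, were lower in shM3-WT: IRF9 4.61-fold (log2 difference -1.88, adjusted p = 0.00268) and STAT2 2.26-fold (adjusted p = 0.000246). The RNA sensors IFIH1 (MDA5) and DDX58 (RIG-I) were 4.92-fold and 3.32-fold lower there. STING1, DHX58, TBK1, MYD88, TICAM1, JAK1, IRF2, PIAS1 and IFNL1 were the remaining genes called lower, and IRF1, CGAS, IKBKE and SOCS1 were higher. In shM3 against B5 IFIH1 and IRF1 were lower (log2 differences -1.21 and -1.20). No interferon receptor was called in shM3-WT against shM3. IFNB1, the type I interferon of epithelial cells, was listed at 0 in every library of the knockdown and DMSO tables. The type III ligand IFNL1 was listed at 0.81 and 1.55 FPKM (B5), 1.29 and 2.02 (shM3), 0 and 0.067 (shM3-WT) and 0.49 and 0.37 (shM3-CD).

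JQ1 lowered part of the set and raised a small group. In JQ1 against DMSO, 20 of 50 tested members were lower and 4 higher, against 20.6% of all 14936 genes lower and 14.5% higher. The members' median log2 difference was -0.39 beside -0.04 over all genes. IRF7, IFI6, TRIM25 and ISG15 rose, while OAS, IFIT, GBP and IFITM genes made up most of the falls, led by OAS3, OASL and CXCL11. The summed FPKM was nearly level, at 964.9 and 962.3 in DMSO and 990.8 and 1018.0 with JQ1. Of the 24 calls, 13 held with each library left out, and the count was 15 without the JQ1 library a. The labels number the JQ1 libraries in a way that cannot be tied to the columns, so they are called a and b. A call was lost in at least 1 such fit for BST2, DTX3L, EPSTI1, HERC6, IFI6, IFIT2, ISG15, ISG20, OAS1, PLSCR1 and TRIM22, with adjusted p up to 0.194.

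With Molib, 23 of 50 members were lower than in DMSO and 4 higher (IRF7, IFI6, TRIM25 and ISG15), beside 20.5% of all genes lower and 14.8% higher, with a median log2 difference of -0.41 beside -0.03 over all genes. Of the 27 calls, 15 held with each library left out, and the count was 16 without DMSO replicate 2. A call was lost in at least 1 such fit for BST2, DTX3L, EPSTI1, HERC6, ISG15, ISG20, OAS1, PARP14, PML, TRIM22, TRIM25 and USP18, with adjusted p up to 0.25. JQ1 and Molib were set against the same DMSO libraries, so their changes are not independent of each other. Compared directly at the same 0.5 µM and 3 days, no member and 0% of all genes in either direction were called between Molib and JQ1 by limma. At an unadjusted p under 0.05 there were 5 members and 1227 genes. The differences of the 50 members ran from -0.46 to 0.52, and their 95% intervals reached from -0.86 to 1.28. Both bounds lay within 0.5 of 0 for 25 members and within 1 of 0 for 49.

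The libraries labelled I-BET151 went the other way. Against DMSO, 35 of 50 members were higher and 1 lower, IFITM2, beside 13.9% of all genes higher and 14.1% lower. The members' median log2 difference was 0.90 beside 0.00 over all genes, and the summed FPKM was 2863.1 and 2623.2. CXCL10, OASL and IFIT2 made the largest rises. At least CXCL10, RSAD2, OAS1 and MX2 passed the filter only through the libraries under this label. They could be tested only because they were high there, so their calls are not support for a rise. The counts for this label include them. Leaving out 1 library at a time gave 27 to 37 calls, and 23 of the 36 calls held in every such fit. A call was lost in at least 1 such fit for DDX60L, DTX3L, EPSTI1, HERC6, IFI44, IFI6, IFITM1, IFITM2, LGALS3BP, MX1, OAS3, PARP9 and RTP4, with adjusted p up to 0.178. Against JQ1, 40 members were higher and 2 lower (24.6% and 20.1% of all genes), with a median of 1.29, and against Molib also 40 and 2 (23.6% and 19.9%), with a median of 1.197. IRF7 and TRIM25 were the 2 lower genes against JQ1 and against Molib. The 5 haematopoietic markers summed to 25.3 to 35.3 FPKM in DMSO, 22.5 to 24.9 with JQ1, 24.8 to 26.5 with Molib and 36.4 to 50.4 under the I-BET151 label, with CD3E at 0 in each library. The 6 luminal epithelial markers, mostly KRT8, summed to 232 to 256, 470.2 to 503.9, 451 to 473 and 209 to 240.3. Of these markers only KRT8 was higher with both JQ1 and Molib than in DMSO. GATA3, EPCAM and CDH1 were lower there, and ESR1 and PGR were at or near 0. Their part in the members' changes was not tested. In each of these 2 comparisons 35 of the 42 calls held with each library left out. HEXIM1 in these libraries was 3.35-fold below DMSO, and VIM, which marks mesenchymal cells, was at 650 and 818 FPKM against 1458 and 1462. Of the other markers expected in MDA-MB-231 cells, MSN was also lower, at 83.2 and 84.2 against 177.5 and 178.9. CD44 was higher, at 223.7 and 206.8 against 126.6 and 149.4. AXL was also higher, at 196.4 and 185.2 against 158 and 153.6. RN7SK was at 9.48 and 7.07 against 2.08 and 1.78. The part of these shifts in the members' rise was not tested.

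**Figure D4:**
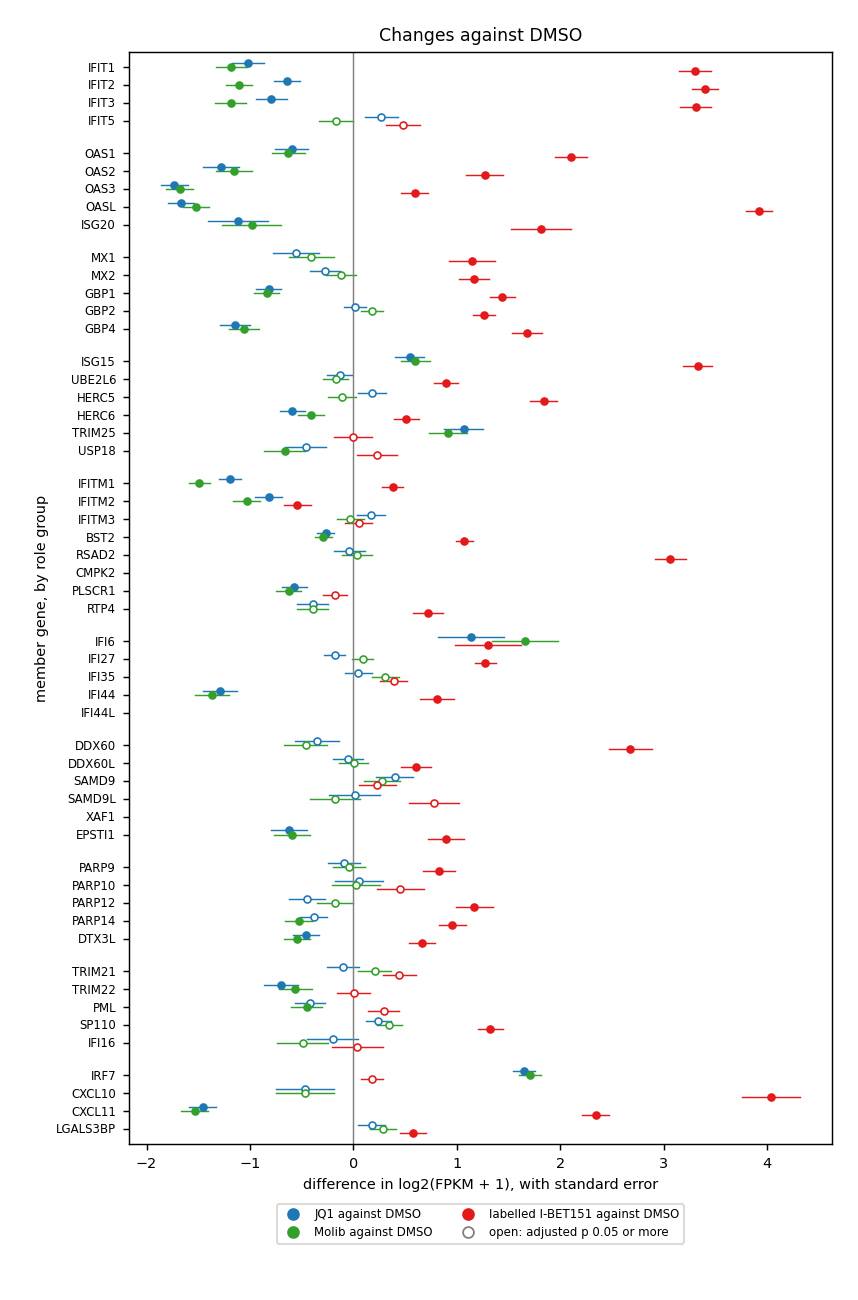
Log2 difference of each tested member, log2(FPKM + 1) scale, in the 3 comparisons against DMSO, members in rows by role, 1 coloured point per comparison with its standard error as a line, filled where called. Against DMSO 20 points are called lower with JQ1 and 23 with Molib, and 35 are called higher in the libraries labelled I-BET151.

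Among the IFIT genes, IFIT1 was listed at 4.06 and 4.25 FPKM (DMSO), 1.29 and 1.81 (JQ1), 1.13 and 1.43 (Molib) and 45.5 and 54.4 (labelled I-BET151). The compounds JQ1 and Molib lie below DMSO and overlap each other. IFIT1 was 2.68-fold lower with JQ1 (log2 difference -1.02 with SE 0.15, adjusted p = 0.00262) and 12.02-fold higher in the libraries labelled I-BET151 (log2 difference 3.30 with SE 0.15, adjusted p = 4.07e-05). IFIT2 was listed at 5.37 and 6.55 FPKM (DMSO), 3.53 and 3.34 (JQ1), 2.04 and 2.43 (Molib) and 71.2 and 73.4 (labelled I-BET151), a rise of 12.1-fold under the I-BET151 label. IFIT3 was listed at 12.3 and 10.9 FPKM (DMSO), 5.92 and 6.56 (JQ1), 5.15 and 3.95 (Molib) and 112 and 136 (labelled I-BET151), 2.55-fold lower with Molib than in DMSO. IFIT5 was called against DMSO in none of the 3. All 5 genes of the OAS group were lower with JQ1 and with Molib and higher in the libraries labelled I-BET151. OAS1 was listed at 0.708 and 1.003 FPKM (DMSO), 0.174 and 0.276 (JQ1), 0.272 and 0.126 (Molib) and 7.46 and 6.46 (labelled I-BET151). OASL was listed at 6.62 and 6.62 FPKM (DMSO), 1.37 and 1.45 (JQ1), 1.89 and 1.44 (Molib) and 121 and 108 (labelled I-BET151), 4.705-fold lower with JQ1 (log2 difference -1.66, adjusted p = 0.000171) and 17.3-fold higher under the I-BET151 label (log2 difference 3.92 with SE 0.12, adjusted p = 1.58e-05). OAS3 was 4.67-fold lower with JQ1 and 1.57-fold higher under the I-BET151 label, a call lost without DMSO replicate 1.

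MX1 stood at 2.32 and 1.59 FPKM (DMSO), 0.772 and 1.25 (JQ1), 0.854 and 1.64 (Molib) and 5.501 and 5.49 (labelled I-BET151). Its differences with JQ1 and Molib did not pass the test (log2 difference -0.55, adjusted p = 0.0891; log2 difference -0.41, adjusted p = 0.192), and it was 2.81-fold higher under the I-BET151 label. GBP1 was listed at 6.53 and 6.83 FPKM (DMSO), 3.44 and 3.28 (JQ1), 3.63 and 2.97 (Molib) and 18.9 and 20.7 (labelled I-BET151), 1.99-fold lower with JQ1 (log2 difference -0.82, adjusted p = 0.00253), 2.02-fold lower with Molib and 2.96-fold higher under the I-BET151 label. GBP2, its neighbour, did not pass with JQ1 (log2 difference 0.01, adjusted p = 0.943). In the ISG15 system, ISG15 was listed at 96.7 and 95.7 FPKM (DMSO), 137 and 144 (JQ1), 129.8 and 165 (Molib) and 1076 and 882 (labelled I-BET151). It was 1.46-fold higher with JQ1 (log2 difference 0.54, adjusted p = 0.0225) and 1.53-fold higher with Molib, calls that were lost in all 4 and in 3 of 4 fits without 1 library, and 10.2-fold higher under the I-BET151 label (log2 difference 3.33 with SE 0.14, adjusted p = 3.04e-05). TRIM25 was listed at 28.6 and 25.4 FPKM (DMSO), 56.5 and 58.5 (JQ1), 63.3 and 42.4 (Molib) and 29.1 and 24.9 (labelled I-BET151). It rose 2.13-fold with JQ1 and 1.96-fold with Molib and did not pass under the I-BET151 label (log2 difference -0.002, 95% interval -0.43 to 0.43). HERC6 was 1.76-fold lower with JQ1, while HERC5 and UBE2L6 did not pass with JQ1 and were 3.86-fold and 1.88-fold higher under the I-BET151 label.

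IFITM1 was listed at 23.4 and 26.9 FPKM (DMSO), 10.4 and 10.4 (JQ1), 8.296 and 8.27 (Molib) and 32.5 and 33.3 (labelled I-BET151), 2.42-fold lower with JQ1 (log2 difference -1.19 with SE 0.10, adjusted p = 0.00028) and 3.04-fold lower with Molib. IFITM2 was listed at 33.2 and 28.6 FPKM (DMSO), 15.8 and 18.4 (JQ1), 14.7 and 14.4 (Molib) and 19.3 and 22.5 (labelled I-BET151), 1.81-fold lower with JQ1, 2.12-fold lower with Molib and 1.48-fold lower under the I-BET151 label. IFITM3 was listed at 139 and 138 FPKM (DMSO), 155 and 157 (JQ1), 142 and 130.2 (Molib) and 164 and 126 (labelled I-BET151), where both JQ1 libraries lie above DMSO, the I-BET151 label spans both, and nothing was called. BST2 was listed at 159 and 166 FPKM (DMSO), 136 and 134 (JQ1), 132 and 133 (Molib) and 354 and 331 (labelled I-BET151), 2.11-fold higher under the I-BET151 label, and its falls of 1.21-fold with JQ1 and 1.23-fold with Molib were lost in all 4 fits without 1 library. RSAD2 was at 0.0364 and 0.019 FPKM in DMSO, listed at 0 in both JQ1 libraries, and at 7.002 and 8.23 under the I-BET151 label.

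IFI6 was listed at 11.8 and 19.9 FPKM (DMSO), 34.5 and 35.4 (JQ1), 53.2 and 48.01 (Molib) and 54.8 and 27.9 (labelled I-BET151). It rose 2.21-fold with JQ1 (log2 difference 1.14, adjusted p = 0.0309) and 3.198-fold with Molib (log2 difference 1.66, adjusted p = 0.00728), the JQ1 call being lost in 3 of 4 fits without 1 library. IFI27 was listed at 15.2 and 13.9 FPKM (DMSO), 12.99 and 12.4 (JQ1), 15 and 16.03 (Molib) and 37.6 and 35.6 (labelled I-BET151), with no call for JQ1 or Molib and a rise of 2.52-fold under the I-BET151 label. IFI44 was listed at 8.88 and 9.85 FPKM (DMSO), 2.68 and 3.87 (JQ1), 3.04 and 2.97 (Molib) and 18.7 and 15.5 (labelled I-BET151), 2.86-fold lower with JQ1 and 3.11-fold lower with Molib. DDX60 was 9.72-fold higher under the I-BET151 label, and SAMD9 and SAMD9L were not called there. Of the PARP group, PARP9, PARP12, PARP14 and DTX3L were higher under the I-BET151 label, 2.41-fold for PARP12, and DTX3L was lower with JQ1 (1.53-fold) and Molib. PML was listed at 13.03 and 17.1 FPKM (DMSO), 11.8 and 10.1 (JQ1), 10.3 and 11.02 (Molib) and 19.3 and 17.8 (labelled I-BET151), called lower with Molib (1.41-fold) but not with JQ1 (log2 difference -0.42, adjusted p = 0.0624). The direct test of Molib against JQ1 for PML gave a log2 difference of -0.04 (95% interval -0.38 to 0.31).

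IRF7 was listed at 12.2 and 10.5 FPKM (DMSO), 36.7 and 38.7 (JQ1), 39.3 and 39.02 (Molib) and 12.7 and 13.2 (labelled I-BET151). Both JQ1 and both Molib libraries lie above all others. The rise was 3.32-fold with JQ1 (log2 difference 1.65 with SE 0.10, adjusted p = 9.58e-05) and 3.45-fold with Molib (log2 difference 1.71 with SE 0.10, adjusted p = 7.73e-05), and the libraries labelled I-BET151 did not pass (log2 difference 0.18, adjusted p = 0.24). The chemokines CXCL10 and CXCL11 rose under the I-BET151 label. CXCL10 was listed at 0.0527 and 0.827 FPKM (DMSO), 0 and 0 (JQ1), 0 and 0 (Molib) and 17.9 and 26.5 (labelled I-BET151). Its rise was 50.5-fold under the I-BET151 label (log2 difference 4.04 with SE 0.28, adjusted p = 0.000196), over DMSO values that differ between the 2 libraries. CXCL10 passed the filter only through the libraries under that label. CXCL11, which binds the same receptor, was listed at 1.84 and 1.95 FPKM (DMSO), 0.116 and 0 (JQ1), 0 and 0 (Molib) and 13.7 and 13.7 (labelled I-BET151). LGALS3BP was 1.49-fold higher under the I-BET151 label and not called with JQ1 or Molib.

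Of 30 tested pathway genes, 3 were higher and 6 lower with JQ1, against 14.5% and 20.6% of all genes. With Molib 2 were higher and 6 lower (14.8% and 20.5% of all genes). The JQ1 and Molib counts are no larger than those shares. Under the I-BET151 label 7 were higher and 1 lower (13.9% and 14.1% of all genes). STAT2 (log2 difference 0.41, adjusted p = 0.0367), JAK1 and PIAS1 were higher with JQ1. The receptors IFNGR2 and IFNLR1 and the sensing genes DDX58, CGAS, STING1 and IKBKE were lower with JQ1 and with Molib. STAT2 rose in the same JQ1 libraries in which OAS genes fell. Under the I-BET151 label IFIH1 was 8.56-fold higher and DDX58 3.98-fold, with DHX58, IKBKE, TICAM1, IFNAR2 and IFNGR2 also higher and TYK2 lower. STAT2 and IRF9 were not called there. IFNL1 was at 0.55 and 0.70 FPKM under that label and passed the filter in no comparison of this table.

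In the CTRL table the CTRL and JQ1 replicates disagree, so the value of each library is given beside any call. In JQ1 against CTRL, 0 of 49 tested members and 0% of all 13261 genes in either direction were called by limma, with 8 members and 2048 genes at an unadjusted p under 0.05. The members' median log2 difference was -0.70, and leaving out 1 library gave 3, 2 and 2 calls without CTRL replicate 1, CTRL replicate 2 and JQ1 replicate 1, and 0 without JQ1 replicate 2. Of the 49 members, CTRL replicates 1 and 2 listed 13 and 4 at 0, JQ1 replicates 1 and 2 listed 11 and 15, and MW-JQ1 listed none. On simulated data with this spread, none of 200 changed genes was found in that comparison.

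MW-JQ1 was higher than JQ1 in 8 of 49 members and lower in 0 (13.5% of all genes higher, 1.62% lower). It was higher than CTRL in 5 and lower in 1 (13.3% and 1.88%). These counts are near the shares over all genes. The members' medians of 1.49 and 0.75 stand beside medians over all genes of 0.75 and 0.61. With median scaling the members' medians become 1.105 and 0.383, and those over all genes 0.15 and 0.14. The table as deposited is therefore shifted upward over all genes in MW-JQ1. The 8 calls against JQ1 become 4 with median scaling and 3 without either MW-JQ1 library. Against CTRL the 6 calls become 14 without CTRL replicate 2 and 2 without either MW-JQ1 library. RN7SL1, at 37435 to 52947 FPKM in the CTRL and JQ1 libraries and 23.8 and 57.6 in MW-JQ1, separates the same libraries, and its part was not tested.

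ISG15 was listed at 98.4 and 148 FPKM in CTRL, 64.8 and 25.9 in JQ1 and 269 and 232 in MW-JQ1, 5.52-fold higher in MW-JQ1 than in JQ1 (log2 difference 2.58 with SE 0.49, adjusted p = 0.0283). BST2 was listed at 144 and 131 FPKM in CTRL, 68.02 and 73.4 in JQ1 and 285 and 298 in MW-JQ1. It was called higher in MW-JQ1 against both JQ1 (adjusted p = 0.00128) and CTRL (adjusted p = 0.0134), with no overlap between MW-JQ1 and the other 4 libraries. LGALS3BP was listed at 143 and 207 FPKM in CTRL, 118 and 138 in JQ1 and 466 and 471 in MW-JQ1 and was called higher in both comparisons. HERC5 was listed at 16.3 and 10.8 FPKM in CTRL, 2.87 and 2.82 in JQ1 and 17.7 and 14.1 in MW-JQ1, where CTRL and MW-JQ1 overlap and JQ1 is lowest. GBP1 was listed at 35.6 and 29.7 FPKM in CTRL, 4.39 and 5.47 in JQ1 and 21.9 and 22.7 in MW-JQ1, called higher in MW-JQ1 than in JQ1. MX2, XAF1 and CXCL11 were called higher in both comparisons from levels listed at 0 or below 0.4 FPKM. These genes passed the filter only through the MW-JQ1 libraries. A rise there was the only change of them that could be called, so their calls are not support for a rise. The counts of calls above include them. IFITM2, at 115 and 127 FPKM in CTRL, 20.6 and 32.6 in JQ1 and 32.7 and 35.9 in MW-JQ1, was the member lower in MW-JQ1 than in CTRL. Few of these calls held with each library left out. Against JQ1, ISG15, GBP1 and LGALS3BP were lost without either MW-JQ1 library, XAF1 in 3 of 4 such fits and HERC5 in all 4, with adjusted p up to 0.378, while BST2, MX2 and CXCL11 held. Against CTRL, BST2, LGALS3BP and XAF1 were lost without either MW-JQ1 library and IFITM2 in 3 of 4 fits, with adjusted p up to 0.173, while MX2 and CXCL11 held.

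The other members named throughout were not called here. IFIT1 was listed at 2.57 and 1.01 FPKM in CTRL, 3.26 and 1.87 in JQ1 and 16.5 and 16.1 in MW-JQ1, and its MW-JQ1 libraries are the highest. OAS1 was listed at 0 and 2.94 FPKM in CTRL, 0 and 0 in JQ1 and 6.35 and 5.67 in MW-JQ1, and MX1 at 4.91 and 0 FPKM in CTRL, 0 and 0.185 in JQ1 and 8.55 and 10.6 in MW-JQ1. These 2 genes show the zeros that set the CTRL and JQ1 libraries apart. IFI27 was listed at 49.3 and 29.1 FPKM in CTRL, 17.9 and 74.3 in JQ1 and 53 and 58.6 in MW-JQ1, IRF7 at 2.84 and 4.12 FPKM in CTRL, 17.8 and 5.97 in JQ1 and 22.2 and 23.3 in MW-JQ1, and CXCL10 at 0 and 5.41 FPKM in CTRL, 0 and 0 in JQ1 and 2.4 and 2.54 in MW-JQ1. IRF7 was higher in both JQ1 libraries than in both CTRL libraries, the same order as in the DMSO table, but did not pass (adjusted p = 0.413). IFITM3 was listed at 390.1 and 388 FPKM in CTRL, 369.9 and 342 in JQ1 and 280.1 and 278 in MW-JQ1, and PML at 2.63 and 6.804 FPKM in CTRL, 3.51 and 1.16 in JQ1 and 13.01 and 14.3 in MW-JQ1. Of 27 tested pathway genes, MW-JQ1 was higher than JQ1 in 3 (TYK2, IFIH1 and DHX58), beside 13.5% of all genes. Against CTRL DHX58 was higher and CGAS lower, beside 13.3% and 1.88% of all genes.

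**Figure D5:**
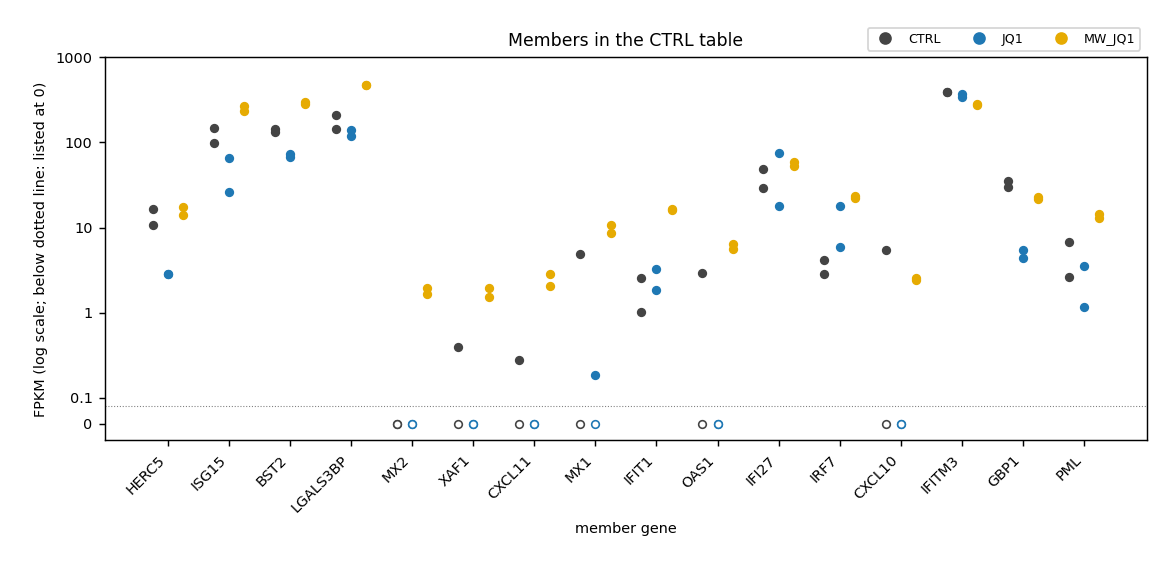
FPKM on a log axis of 16 members in the 6 libraries of the CTRL table, one point per library, values listed at 0 drawn at the foot of the axis. For OAS1, MX1 and CXCL10 1 of the 2 CTRL points is at 0, while the 2 points of MW-JQ1 lie close together for each gene.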

How the data were processed

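RNA of 22 MDA-MB-231 libraries had been sequenced, 2 per group. The authors deposited FPKM per gene in 3 tables, made with CASAVA 1.4, HISAT2 2.1.0 and Cufflinks 2.2.1 on hg38, per the submitters' processing notes. For the annotation and strand setting, the sources used here name none. Groups came from the sample labels. Where 2 columns could not be tied to a replicate number, they were taken as the JQ1 group of the DMSO table.

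From these values log2(FPKM + 1) was computed, genes reaching 1 FPKM in 2 or more libraries per table entered the fit (14638, 14936 and 13261), and limma 3.58.1 in R 4.3.3 (lmFit, contrasts.fit, eBayes with trend) was fitted to all groups of a table together, giving 15 comparisons within tables. Benjamini-Hochberg adjusted p under 0.05 over all genes of the table was the threshold. No test crosses tables, which were normalized separately. On simulated data with 200 changed genes, the fit found 82 of 100 with a log2 change of 1 and 96 of 100 with a change of 2 in shM3 against B5, 66 and 92 in JQ1 against DMSO, and 0 and 0 in JQ1 against CTRL. The noise was drawn as normal, and the changed genes came only from genes above a set mean level. These recoveries therefore do not apply to members at low FPKM. The knockdown and DMSO libraries hold about 12740000 to 19300000 fragments, estimated from the FPKM step of 1 fragment, and the depth of the CTRL table is unknown.

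Members and lists were chosen with earlier results of these data known, so counts over them are descriptions. Values of every library are given for the 3 largest rises and falls per comparison among called members with a mean of at least 5 FPKM, and for MX1, IFIT1, OAS1, ISG15, IFI27, IRF7, CXCL10, BST2, IFITM3, GBP1 and PML. Alternatives were pseudocounts of 0.1 and 5, other filters, 2 scalings, a replicate block, only the groups compared, and each library left out. From those lists 1 pathway gene and 1 cell type marker are not reported here and enter no count of a list.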

Additional observations from a re-analysis of the deposited data

Results flagged for a closer look

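For 7 of 49 members the JQ1 effect had opposite signs in the DMSO and CTRL tables, with both JQ1 libraries on one side of both controls in each. No such count was made over all genes or for members moving the same way, so the 7 cannot be set against a background. The difference between the tables was not tested, and in the CTRL table no single member passed the threshold. Each value is the effect in the DMSO table minus the effect in the CTRL table, as a difference of log2(FPKM + 1). For ISG15, the ubiquitin-like tag, it was 2.07 (0.54 and -1.53), and for its E3 ligase HERC5 it was 2.07 (0.18 and -1.89). IFI6 gave 3.44 (1.14 and -2.30), and SP110, a nuclear-body protein, gave 2.46 (0.24 and -2.22). The abundant IFITM3 gave 0.30 (0.17 and -0.13) and LGALS3BP gave 0.60 (0.17 and -0.43). PARP12, a mono-ADP-ribosyltransferase, went the other way, at -1.57 (-0.45 and 1.13). The low replicate correlation of the CTRL table (0.746 and 0.777) and its values listed at 0 touch every one of these numbers, and their part was not tested.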

How the results depend on the processing

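Counts of called members kept within 1.5 times of the reported ones in the knockdown and DMSO tables under each pseudocount, filter, scaling and fit of only the groups compared. Leaving out 1 library moved the following by more: 16 to 19 calls in shM3 against B5 (reported 27), 4 to 9 in shM3-CD against shM3 (19), 15 to 18 in JQ1 against DMSO (24), 16 to 19 in Molib against DMSO (27), 0 to 3 in JQ1 against CTRL (0), 3 to 10 in MW-JQ1 against JQ1 (8) and 2 to 14 in MW-JQ1 against CTRL (6). Each such fit has fewer libraries. In the knockdown and DMSO comparisons named here, the counts over all genes fell in the same fits as well. In the CTRL table MW-JQ1 against JQ1 gave 5 calls with the replicate block, 18 with only the groups compared, 3 with the 5 FPKM filter and 4 with median scaling, and MW-JQ1 against CTRL gave 11 with only the groups compared and 3 with the 5 FPKM filter; the cause was not tested. TRIM22 in MW-JQ1 against CTRL (log2 difference -0.26, not called) was called higher, at 1.68, without CTRL replicate 2 and lower, at -2.196, without CTRL replicate 1; its CTRL values were 0 and 13.7 FPKM.

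Same-numbered libraries did not deviate together (correlations -0.123 to 0.042). With 2 libraries per group this cannot exclude that the numbers pair the samples, and the labels do not state a pairing. With the replicate number as a block, the counts were 25 in shM3 against B5, 44 in shM3-WT against shM3, 19 in shM3-CD against shM3, 34 in shM3-WT against shM3-CD, 50 in shM3-WT against B5, 35 in shM3-CD against B5, 19 in Molib against DMSO, 32 in I-BET151 against DMSO, 41 in I-BET151 against Molib, 0 in JQ1 against CTRL and 6 in MW-JQ1 against CTRL. Over all genes the counts with the block were, in the same order, 5282, 5520, 1349, 3370, 4096, 4110, 3970, 2697, 5545, 0 and 1580. Without it they were 5534, 5772, 1670, 3785, 4386, 4384, 5273, 4181, 6504, 0 and 2009. JQ1 of the DMSO table has no numbers and was left out of the fit with the block. A block with crossed numbers, chosen after seeing the data, gave 32 member calls for I-BET151 against DMSO, beside 2404 over all genes.

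Depth limits the low members: below about 1 FPKM, values rest on few fragments, and the CTRL table supports no statement about the absence of a change.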

Other observations

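The control cells of the 2 larger tables differed in the level of the set. Both B5 libraries lay above both DMSO libraries in 47 of the 49 members listed in all 3 tables and below in 0, and the median ratio of the B5 mean to the DMSO mean was 5.18. Over 14381 genes, 37.6% had both B5 libraries above both DMSO libraries, and the median ratio was 1.02. The tables were normalized separately and differ in infection, time in culture and possibly library preparation, which cannot be told apart, so no test was made.

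The fall with METTL3-WT and the rise under the I-BET151 label share no library. Of 50 members tested in both, 42 were lower in shM3-WT than in shM3 and 35 were higher under the I-BET151 label than in DMSO, and 31 were both. So 73.8% of the members lower with METTL3-WT were higher under the I-BET151 label, beside 70.0% of all 50, and 88.6% of the members higher under that label were lower with METTL3-WT, beside 84.0% of all 50. The overlap is close to what the 2 shares alone give.

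Splitting the members by the ISRE core in the promoter window gave no single order across comparisons. Members with the core were called lower in shM3-WT than in shM3 in 29 of 31 cases and those without it in 7 of 10, beside 22.7% of all genes. Against B5, shM3-WT was lower in 29 of 31 and 9 of 10 (18.2% of all genes), and shM3-CD in 19 of 31 and 7 of 10 (15.2%). In shM3-CD against shM3 the counts were 9 of 31 and 4 of 10 (4.59%). Under the I-BET151 label 25 of 30 and 5 of 9 were higher than in DMSO (13.9%), and in MW-JQ1 against CTRL 2 of 29 and 2 of 10 (13.3%). In shM3-WT against shM3-CD 23 of 31 and 5 of 10 were lower (15.7%). Against DMSO 12 of 30 and 3 of 9 were lower with JQ1 (20.6%). With Molib 13 of 30 and 3 of 9 were lower (20.5%). The I-BET151 label was higher than JQ1 in 26 of 30 and 6 of 9 (24.6%). It was higher than Molib in 25 of 30 and 6 of 9 (23.6%). MW-JQ1 was higher than JQ1 in 5 of 29 and 2 of 10 (13.5%). For shM3 against B5, 13 of 31 and 4 of 10 were lower (19.9%). These splits are descriptions, with no test.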
